A study of Mus musculus with 3 samples.

Results

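The genes described here are the proteasome genes of the mouse as their names give them: every protein-coding gene of the GENCODE M21 annotation whose symbol begins with Psm followed by a letter from a to g. There are 50 such genes among 21951 protein-coding genes, and among 55536 annotated genes of all kinds, that have a row in the tables. Another 4 pseudogenes fit the name but are not protein-coding, and none of them exceeded 0.49 TPM in any library. RNA carrying a poly(A) tail was sequenced from activated regulatory T cells of a male mouse aged 9 weeks. The mouse was of the strain Foxp3GFP-DTRCD4CreERT2R26tdTomato, whose name gives a GFP and diphtheria toxin receptor allele at Foxp3, a tamoxifen-inducible Cre under CD4, and a tdTomato reporter at R26. All 3 libraries are technical replicates of 1 biosample, there is no other condition, and the way the cells were activated and purified is not given in the sources used here. Every SD below, and every p-value of a test between libraries, therefore concerns how far the libraries of 1 biosample lay apart. That distance may be purely technical. The permutation p-values for ratios between genes also take these libraries as their units, so they do not reach beyond this biosample. Because the RNA comes from a bulk sample, fewer cells of a type and less RNA per cell cannot be told apart.

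The proteasome is the protease that degrades proteins tagged with ubiquitin. Its barrel-shaped 20S core has outer rings of alpha subunits, which gate entry, and inner rings of beta subunits, of which only Psmb5, Psmb6 and Psmb7 cut peptide bonds in the constitutive form. In immune cells, and in other cells exposed to interferon gamma, newly built cores take up Psmb8 in place of Psmb5, Psmb9 in place of Psmb6 and Psmb10 in place of Psmb7, and this immunoproteasome yields more peptides that MHC class I can present. The 19S regulator, made of a base with ATPases and a lid, binds the ends of the core and feeds it unfolded substrates, while PA28 and PA200 are other caps that work without ATP.

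The catalytic subunits come in 3 pairs of relatives that compete for the same place in the core, and the stretch around the catalytic threonine shows how close each pair is. Each line gives 48 coding bases of the GENCODE M21 transcript, with the codon of that threonine, the first residue of the mature subunit, in capitals.
Psmb8: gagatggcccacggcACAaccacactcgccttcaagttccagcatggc
Psmb5: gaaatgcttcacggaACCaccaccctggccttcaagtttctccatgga
Psmb9: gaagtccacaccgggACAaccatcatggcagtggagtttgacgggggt
Psmb6: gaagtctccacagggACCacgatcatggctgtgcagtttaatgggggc
Psmb10: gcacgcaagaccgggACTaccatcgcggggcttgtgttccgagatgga
Psmb7: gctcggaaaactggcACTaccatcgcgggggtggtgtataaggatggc
Over the coding sequence of the mature subunit, Psmb8 and Psmb5 were identical at 69.1% of aligned bases, Psmb9 and Psmb6 at 64.8%, and Psmb10 and Psmb7 at 63.1%. The other pairings of these 6 genes lay between 54.5 and 60.1%. Of the 6, Psmb5 shared 57.1% of the 50-base windows of its main transcript with another gene's transcript, largely the processed pseudogene Gm3375, which was listed at 0.587 TPM. Psmb8 shared 24.3% with the antisense gene Gm20496, and Psmb7 shared 28.1% with the overlapping gene Nek6.

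All 3 immunoproteasome subunits were more abundant per length than the subunits they replace, in every library. The level of a gene is given in TPM, an abundance corrected for transcript length and sequencing depth, so that genes can be set side by side. Psmb8, the immunoproteasome subunit with chymotrypsin-like activity, stood at 1327, 1264 and 1372 TPM in replicates 1, 2 and 3. Psmb5, its constitutive counterpart, stood at 228, 212 and 219 TPM. The lowest library for Psmb8 was thus far above the highest for Psmb5, and the TPM ratio was 6.01 ± 0.234 (SD, n = 3). Psmb9 stood at 635, 583 and 626 TPM, against 336, 306 and 318 TPM for Psmb6, which has the caspase-like activity in the constitutive core. This pair had the smallest ratio of the 3, 1.92 ± 0.0420 (SD, n = 3), yet its ranges did not overlap. Psmb10 stood at 460.5, 446 and 468 TPM, against 108, 101 and 97.0 TPM for Psmb7, which has the trypsin-like activity. The ratio of Psmb10 to Psmb7 was 4.51 ± 0.289 (SD, n = 3), and again no library of one gene reached a library of the other.

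The order of the levels was Psmb8, Psmb9, Psmb10, Psmb6, Psmb5 and Psmb7, and the ranges of no neighbours in that order overlapped. The 3 immunoproteasome subunits summed to 2423, 2293 and 2466 TPM, and the 3 constitutive ones to 672, 619 and 634 TPM. The immunoproteasome genes therefore held 78.9 ± 0.649% of the catalytic TPM (SD, n = 3). On the log2 scale the ratio of the sums was 1.90 ± 0.06, with 2.59 ± 0.06 for Psmb8 over Psmb5, 0.94 ± 0.03 for Psmb9 over Psmb6 and 2.17 ± 0.09 for Psmb10 over Psmb7. Each ratio was above 1 in 3 of 3 libraries, and the exact two-sided sign-flip permutation test over libraries gave p = 0.25 for each, the smallest p that 3 libraries allow. Every one of these ratios was lowest in replicate 1 and highest in replicate 3.

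**Figure D1:**
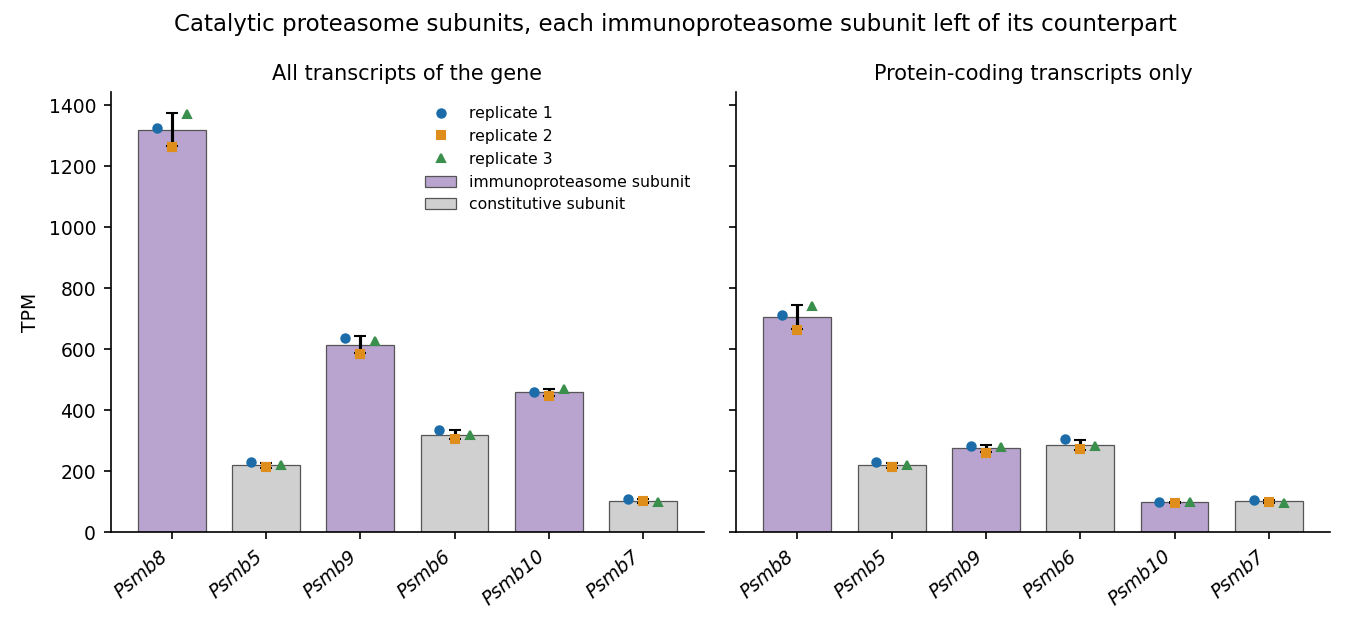
Level in TPM of the 6 catalytic subunits, each immunoproteasome subunit left of the constitutive subunit it replaces, from all transcripts of the gene (left) and from protein-coding transcripts only (right). Bars are means over 3 libraries, error bars the SD and symbols the libraries; Psmb8 exceeded Psmb5 in both panels, whereas the means of Psmb9 and Psmb10 exceeded those of Psmb6 and Psmb7 in the left panel only.

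The lead of Psmb9 over Psmb6 and of Psmb10 over Psmb7 was not present when only transcripts annotated as protein-coding were counted. The deposited transcript tables divide each gene's estimated counts among its annotated transcripts, a division that short reads leave uncertain. Protein-coding transcripts took 40.4 ± 0.845% of the counts of Psmb8, 34.3 ± 1.27% of those of Psmb9 and 36.4 ± 0.519% of those of Psmb10 (SD, n = 3). They took 100% of the counts of Psmb5, 89.7 ± 0.840% of those of Psmb6 and 96.6 ± 0.524% of those of Psmb7. Restricted to protein-coding transcripts, Psmb8 kept 711, 663 and 743 TPM, against the unaltered 228, 212 and 219 TPM of Psmb5. Psmb9 kept 283, 261 and 279.5 TPM, against 305, 273 and 283 TPM for Psmb6, so that these ranges overlapped. Psmb10 kept 98.3, 96.9 and 100.03 TPM, against 106, 99.4 and 95.8 TPM for Psmb7, and these ranges overlapped as well. On this basis the TPM ratio was 3.21 for Psmb8 over Psmb5, 0.957 for Psmb9 over Psmb6, 0.980 for Psmb10 over Psmb7 and 1.78 for the sums.

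The division among transcripts also enters the gene-level TPM, because the authors' length of a gene is weighted by its transcripts. The gene's estimated counts were also divided by the effective length of 1 full coding transcript, a choice made after seeing the data. For Psmb8 this was Psmb8-201, which took 1.31% of the gene's counts, while the coding transcript Psmb8-203 took 35.5%. With the length of Psmb8-201 the ratio was 3.55 for Psmb8 over Psmb5. That ratio depends on the transcript picked, and the length of Psmb8-203 was not tried. Division by 1 coding transcript's length gave 1.40 for Psmb9 over Psmb6 and 2.60 for Psmb10 over Psmb7. All 3 pairs kept the direction of the whole-gene TPM under this division, and it does not use the assignment of reads to transcripts. The counts divided still include reads from retained-intron and decay transcripts, whose intron bases the coding length leaves out. How far this raises the ratios of the immunoproteasome genes was not tested. With the whole-number counts of the second gene table over the same lengths as the TPM, the ratio was 3.34 for Psmb8 over Psmb5, 0.956 for Psmb9 over Psmb6 and 3.27 for Psmb10 over Psmb7. That second table holds about 30.3, 29.3 and 31.1% as many counts as the first in replicates 1, 2 and 3, and its 99 percentile of counts per base was 1.30, against 7.13 in the first table. Psmb8, Psmb9 and Psmb10, at 1.74, 1.37 and 2.03 counts per base, and Psmb6, at 1.43, lay above that percentile in the second table, whereas Psmb5 and Psmb7, at 0.521 and 0.621, lay below it. The counts of abundant genes thus span a narrower range in the second table, by a counting method that is not stated, and its ratio of 0.956 for Psmb9 over Psmb6 compares genes that both lie in that range.

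Transcripts annotated with a retained intron, or as targets of nonsense-mediated decay, carried most of the other counts of the immunoproteasome genes.
Retained-intron transcripts took 59.6% of the counts of Psmb8 and 58.5% of those of Psmb10, and 27.0% of those of Psmb9. In Psmb8 a single such transcript, Psmb8-205, took 56.5 ± 0.529% of the counts (SD, n = 3). It keeps the whole 190-base intron at chr17:34199381-34199570 on the plus strand of mm10. In Psmb10 the retained-intron transcript with the largest share was Psmb10-205, which took 28.3 ± 2.68% of the counts and keeps a 57-base part of an intron. The transcript Psmb10-204 took 21.9 ± 4.39% of the counts and keeps the whole 112-base intron at chr8:105937382-105937493 on the minus strand. Other differences between these transcripts and the coding ones were not examined, so the shares need not rest on reads from the introns. The coding transcripts Psmb8-201 and Psmb10-201 lack the introns kept whole by Psmb8-205 and Psmb10-204. The edges of these introns are shown with exon bases in capitals.
Psmb8 intron start: AGTTACATTAgtgagtatgtgtgctccatg
Psmb8 intron end: tgatctcaaaactcttccagGCTCCTTAAG
Psmb10 intron start: CTAAAATCTAgtcagtatgccccggaccag
Psmb10 intron end: accatccctttgtcccttagCTGCTGTGGG
All of these introns begin with gt and end with ag, the usual letters of spliced introns. In Psmb9 the decay-annotated transcript Psmb9-207 took 38.7 ± 2.23% of the counts, and Psmb9-201, which keeps whole introns of 537 and 1452 bases, took 18.1 ± 2.59%. Across the 48 detected members, protein-coding transcripts took 79.7 ± 0.733% of the counts (SD, n = 3). In 22 members they took 95% or more, and in 13 members under 80%. Psmb4, a non-catalytic beta subunit picked out after its values were seen, resembled the immunoproteasome genes, with 41.6 ± 2.49% of its counts on its protein-coding transcript. Psma3 had 43.9 ± 7.86%, the largest SD of the members under 50%.

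**Figure D2:**
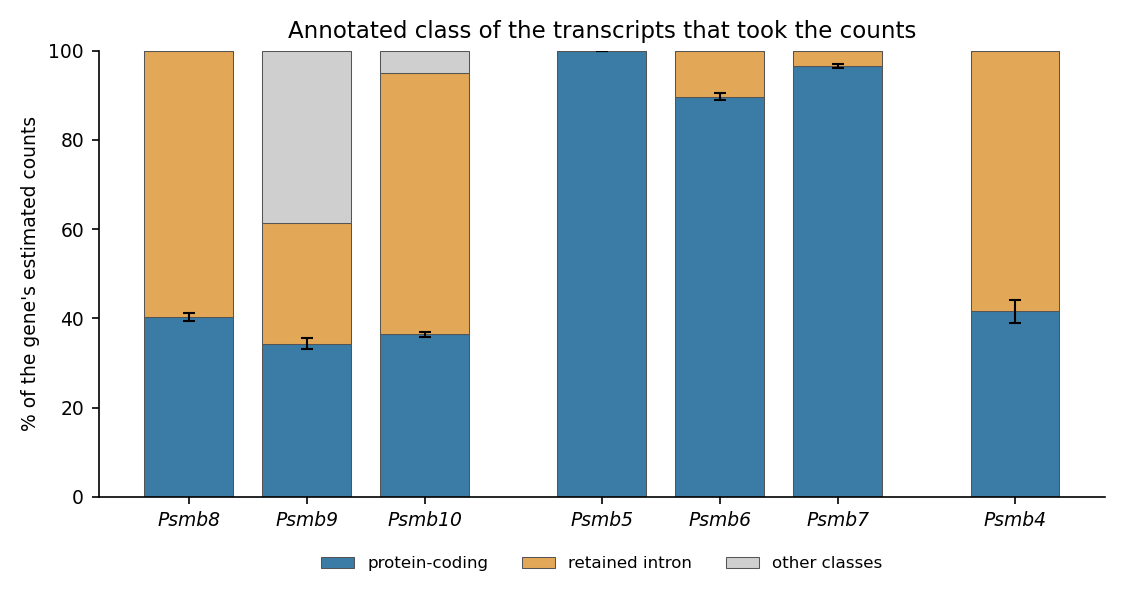
Share of estimated counts, in %, by annotated transcript class for the 3 immunoproteasome subunits (left), the 3 constitutive catalytic subunits (middle) and Psmb4 (right). Bars are means over 3 libraries and error bars the SD of the protein-coding share; that share was 34.3 to 40.4% in the immunoproteasome genes, 89.7 to 100% in the constitutive ones and 41.6% in Psmb4.

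Psmb9 and Psmb8 lie in the MHC region, on either side of Tap1 and close to Tap2, the genes of the TAP transporter, which carries proteasome-made peptides into the endoplasmic reticulum. In mm10, Psmb9 lies at chr17:34181987-34187764 on the minus strand, Tap1 at chr17:34187553-34197225 and Psmb8 at chr17:34197721-34201454 on the plus strand. Psmb9 and Tap1 share 212 exonic bases on opposite strands, and since the strand setting of the counting is not given in the sources used here, reads from that overlap cannot be assigned to one gene with certainty. Tap1 stood at 490.4, 422 and 495 TPM, and Tap2, beyond Psmb8, at 423, 372 and 442 TPM. Both transporter genes were thus lowest in replicate 2, as were Psmb8 and Psmb9. This was not particular to the region, since Psmb10 on chromosome 8 was lowest there too. By library totals, so were 28 of the 48 tested members, against 35.3% of all genes tested. The sequence between the RefSeq starts of Psmb9 and Tap1, chr17:34187331-34187555 of GRCm38.p6, is given on the strand of Psmb9. By the RefSeq starts both genes are transcribed away from it, whereas by the GENCODE coordinates above it lies within Psmb9. Capitals mark matches to GGGNNNNNCC on either strand, the core letters of NF-kappaB sites.
Psmb9 to Tap1: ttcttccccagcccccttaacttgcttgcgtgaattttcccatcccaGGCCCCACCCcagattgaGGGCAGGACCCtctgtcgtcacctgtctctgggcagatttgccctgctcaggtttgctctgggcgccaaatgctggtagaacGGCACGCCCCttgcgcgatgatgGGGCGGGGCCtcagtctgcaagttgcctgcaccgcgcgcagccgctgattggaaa
These 225 bases held 5 matches, some of which overlap. The same letters were present in 24 of 45 RefSeq windows of 250 bases upstream of 42 members, and in 45.8% of all 32851 such windows, so that a match is common. The interferon-gamma-activated element TTCNNNGAA was in 2 of the 45 windows, those of Psmb8 and the chaperone gene Psmg1, and in 7.02% of all windows. The interferon-stimulated element GAAANNGAAA was in 3 of the 45 windows, none of an immunoproteasome gene, and in 2.98% of all windows. The antioxidant element TGACNNNGC, bound by factors of the Nfe2l1 family, was in 5 of the 45 and in 10.2% of all windows. The matches were in windows of Psmb5, Psmb6, Psmc6, Psmd9 and Psmd12, and Psmb7 had no window. CCAAT was in 15 of the 45 and in 33.8% of all windows. Each motif was searched on both strands, and a match in these windows is a description of the letters only.

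Of the 50 genes, 48 were detected, meaning 1 TPM or more in every library, against 47.4% of all protein-coding genes. Their median level was 179 TPM, against 26.1 TPM for the 10415 protein-coding genes detected, and 37 of them averaged above 100 TPM. The 2 members that were not detected are the tissue-restricted variants of the core. Psma8, the testis form of an alpha subunit, was listed at 0.18, 0 and 0.10 TPM from 4, 0 and 2 estimated counts. The count of 0 in replicate 2 allows a level of up to 0.141 CPM, counts scaled to library size. Psmb11, the catalytic subunit of the thymic cortex, was listed at 0.02 TPM in each library, from about 1 estimated count each. Psmb11 is the neighbour of Psmb5, 3411 bases away on chromosome 14, and Psmb5 stood at 220 ± 8.27 TPM (SD, n = 3).

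The 7 alpha subunits of the standard core had a median of 264 ± 13.0 TPM (SD, n = 3). Psma7 was the highest of them, with 401, 406 and 411 TPM, and Psma5 the lowest, with 137, 128 and 135 TPM. Psma5 shared 55.4% of its 50-base windows with other genes, mostly the pseudogenes Gm8394 and Gm12989, and Psma3, at 350 ± 19.4 TPM, shared 78.5% with the pseudogene Gm13835, which was itself listed at 193 TPM. The levels of these alpha subunits are thus uncertain in the share of reads given to each copy.

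The 4 beta subunits without catalytic activity had a median of 297 ± 3.42 TPM (SD, n = 3), close to that of the alpha ring. Psmb3 was the highest, with 437, 382 and 424 TPM, and Psmb1 the lowest, with 251, 249 and 258 TPM. Psmb3 shared 55.8% of its windows with other genes, most of all with the pseudogene AC114990.1, which was listed at 0.773 TPM. The immunoproteasome catalytic subunits, with a median of 615 ± 28.0 TPM, stood above all other subunits of the core in whole-gene TPM. The nearest were Psmb3, whose highest library at 437 TPM lay under the 446 TPM of the lowest library of Psmb10, and Psma7. This order did not hold with protein-coding transcripts only, since the coding transcript Psmb3-201 had 427, 373 and 416 TPM, above the 283, 261 and 279.5 TPM of Psmb9 and the 98.3, 96.9 and 100.03 TPM of Psmb10.

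In the base of the 19S regulator, which unfolds substrates, the 6 ATPases had a median of 164 ± 9.20 TPM (SD, n = 3), below that of the alpha ring in every library. Among them Psmc3 was the highest, with 220.1, 231 and 235 TPM, and Psmc6 the lowest, with 114, 128 and 125 TPM. The ATPases spanned 1.86-fold in mean level, a narrower range than the 3.05-fold of the alpha ring. Of the other base subunits, Psmd2, a scaffold that binds ubiquitin-like domains, had 264, 229 and 268 TPM. Psmd4, a ubiquitin receptor, averaged 253 ± 10.9 TPM, and the scaffold Psmd1 had 103, 103 and 111 TPM, which made it the lowest of the base.

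The lid, which removes ubiquitin from substrates, had a median of 146 ± 6.03 TPM over 8 genes (SD, n = 3). Psmd8 was its highest member, with 228, 221 and 216 TPM, and Psmd3 its lowest, with 108, 78.9 and 75.1 TPM. Psmd14, the deubiquitinase of the lid, averaged 166 ± 5.97 TPM. Over the 31 genes of the alpha ring, the beta ring with its constitutive catalytic subunits, the base and the lid, mean levels spanned 4.74-fold, with Psmd3 at the lower end and Psmb3 at the upper end.

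**Figure D3:**
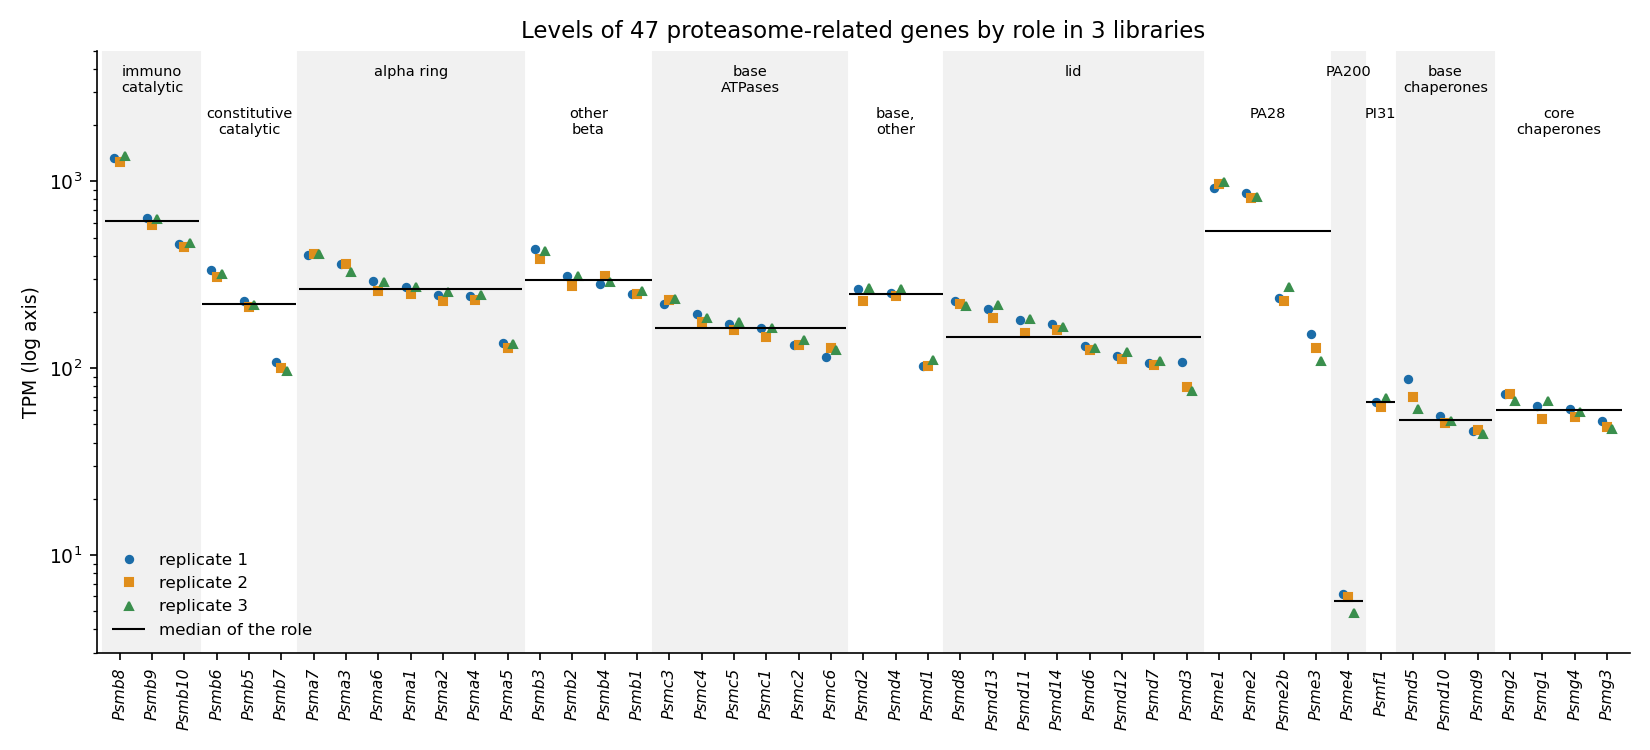
Level in TPM, on a log axis, of 47 proteasome-related genes grouped by role, with the immunoproteasome subunits at the left; Psma8, Psmb11 and Psmc3ip are not plotted. Symbols are the 3 libraries and horizontal lines the median of each role, which was 615 TPM for the immunoproteasome subunits, 541 TPM for PA28 and 146 to 297 TPM for the rings, base and lid.

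PA28 was the most abundant of the alternative caps, and PA200 was scarce. Psme1, the alpha subunit of PA28, stood at 917, 963 and 995 TPM. Psme2, the beta subunit, stood at 864, 819 and 827 TPM. These genes, which interferon gamma is known to induce with the immunoproteasome, ranked after Psmb8 and above Psmb9 among the members in whole-gene TPM. Protein-coding transcripts held 52.2% of the TPM of Psme1 and 84.3% of that of Psme2. The order of Psme1 and Psme2 therefore does not carry over to coding transcripts only. They lie 5912 bases apart on chromosome 14, with Emc9 between them at 27.3 ± 1.66 TPM. Psme2b, a gene with 1 annotated transcript that is a near copy of Psme2, stood at 236, 229 and 272 TPM. Psme2b shared 69.3% of its 50-base windows with other genes, almost all with Psme2, and Psme2 shared 62.1% with Psme2b, so the split of reads between the pair is uncertain. Psme3, which forms the nuclear cap PA28 gamma, stood at 153, 128 and 109 TPM, below both cytoplasmic PA28 genes in every library. Psme4, which encodes the nuclear cap PA200, stood at 6.18, 5.94 and 4.89 TPM, the lowest level of the detected members. Psmf1, which encodes the regulator PI31, stood at 66.0, 61.9 and 69.1 TPM.

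The assembly chaperones were about as abundant as one another and below every ring, base and lid subunit on average. Psmg1 and Psmg2, which pair up to build the alpha ring, stood at 62.5, 53.7 and 66.9 TPM and at 73.2, 73.0 and 67.0 TPM. Psmg3 stood at 52.1, 48.7 and 47.3 TPM. Psmg4, its partner, stood at 60.6, 54.9 and 58.5 TPM. These core chaperones had a median of 59.5 ± 4.56 TPM (SD, n = 3), near the 52.7 ± 2.44 TPM of the base chaperones. Among the base chaperones, Psmd5 was the highest, with 87.9, 70.1 and 60.8 TPM, and Psmd9 the lowest, with 46.0, 46.9 and 44.6 TPM. Psmc3ip, which fits the name rule but encodes a factor of homologous recombination and no proteasome subunit, stood at 6.09, 6.89 and 7.29 TPM.

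The libraries differed from one another by little for most proteasome genes. Each gene with 30 or more counts in all was compared between libraries by a chi-square test of homogeneity (Pearson) on estimated counts, Benjamini-Hochberg adjusted over 14641 genes, and a gene was said to differ at an adjusted p under 0.05. Of the 48 members tested, 24 differed, or 50%, against 44.9% of all genes tested. Among genes with a mean count of 500 or more, where small differences can be detected, 24 of 45 members differed, against 61.3% of 6499 genes. The members' share is thus near the background in both comparisons. Without replicate 2, 12 members differed, against 27.7% of all genes tested. With the second gene table, 4 members differed, against 23.2% of all genes. The ratio of the highest to the lowest library in CPM had a median of 1.07 over the tested members, against 1.22 over all genes tested and 1.12 over those with a mean count of at least 500.

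Only 3 of the 48 tested members had a CPM ratio of 1.25 or more between libraries, against 17.5% of genes whose mean count was at least 500. All 3 were highest in replicate 1 and lowest in replicate 3. Psmd3, a lid subunit, had 144, 109 and 101 CPM, a ratio of 1.43 (adjusted p = 8.15e-39, chi-square test of homogeneity with Benjamini-Hochberg adjustment, as for the genes that follow). This test takes reads as independent, and the reads carry no molecular identifiers, so these p-values may be too small. Psme3 had 239.9, 202 and 178 CPM, a ratio of 1.35 (adjusted p = 6.85e-40). Psmd5, which holds base subunits during assembly, had 106, 91.2 and 78.7 CPM, a ratio of 1.35 (adjusted p = 5.50e-17). The next members among those that differed had replicate 3 at the top. Psmd11, a lid subunit, had 133, 117 and 138 CPM, a ratio of 1.18 (adjusted p = 7.13e-08). Psme2b had 118, 118 and 137 CPM, a ratio of 1.16 (adjusted p = 1.04e-07). Of the immunoproteasome subunits, Psmb8 and Psmb9 differed with ratios of 1.05 each, and Psmb10 did not pass the test (ratio 1.04, adjusted p = 0.315).

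**Figure D4:**
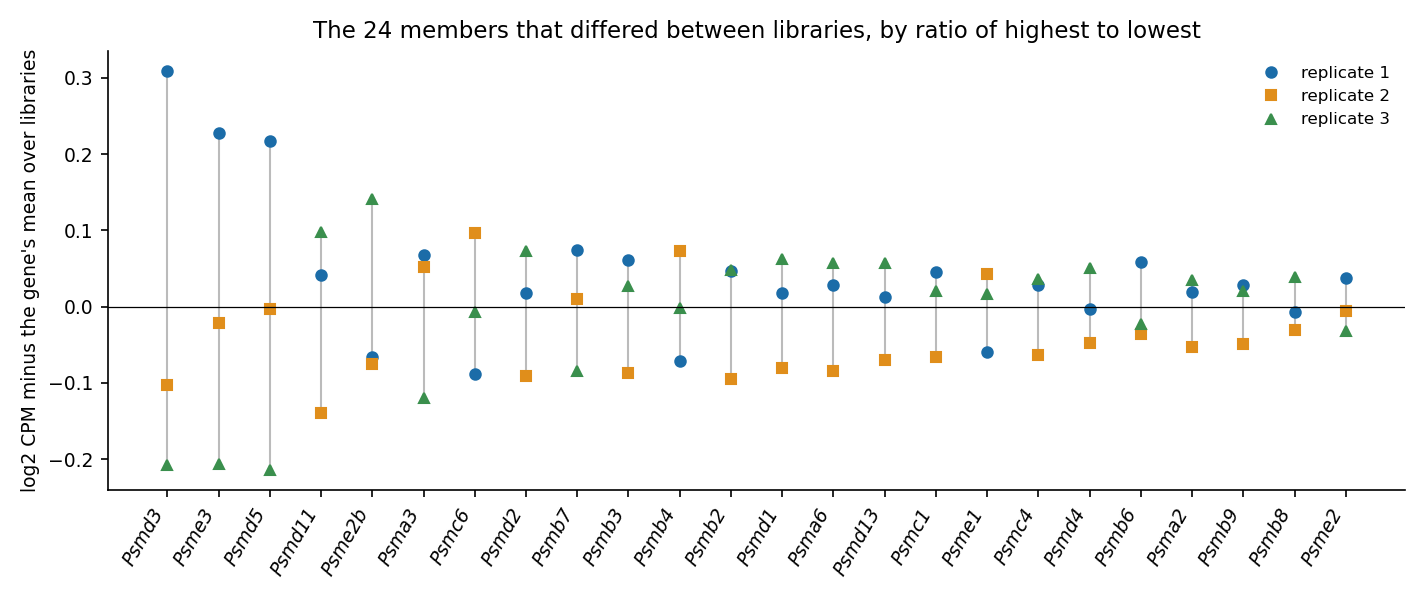
Deviation of each library from the gene's mean, in log2 CPM, for the 24 members that differed between libraries, ordered by the ratio of the highest to the lowest library. Symbols are the 3 libraries and grey lines their span; Psmd3, Psme3 and Psmd5 had the widest spans, with replicate 1 at the top and replicate 3 at the bottom.

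By library totals, 28 of the 48 tested members were lowest in replicate 2, against 35.3% of all genes tested, and 22 were highest in replicate 3, against 32.9%. Among genes with a mean count of 500 or more, 35.8% were lowest in replicate 2 and 37.2% highest in replicate 3. With TMM factors 22 members were lowest in replicate 2, against 32.6% of all genes tested, and with DESeq2 size factors 24 were, against 33.1%. The summed TPM of 5 erythroid markers was 909, 1270 and 1146 TPM in replicates 1, 2 and 3. It was thus highest in replicate 2 and lowest in replicate 1, and its part in these counts was not tested. The summed TPM of the 50 members was 11883, 11293 and 11893 in replicates 1, 2 and 3. Detected protein-coding genes in general were also lower in replicate 2. There the median log2 ratio of TPM to the gene's mean was -0.039 for them and -0.056 for detected members.

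Partners of the proteasome outside the name rule were detected throughout. Pomp, the maturation factor that completes the core, stood at 429.9, 388 and 414 TPM, far above the Psmg chaperones. Adrm1, a ubiquitin receptor of the base, stood at 126, 128 and 132 TPM. Of 11 proteasome-associated genes with a row, 11 were detected and 5 differed between libraries, against 44.9% of all genes tested, with Ubqln2 the lowest at 1.55 ± 0.293 TPM. Of the 4 genes around the transcription factor Nfe2l1, which raises proteasome gene expression when proteasome activity falls, 4 were detected and 2 differed, a share that is near the same background. Nfe2l1 itself stood at 57.3, 52.6 and 53.3 TPM, with Ngly1 the highest of the 4 at 58.5 ± 6.77 TPM and Ddi2 the lowest at 4.40 ± 0.417 TPM.

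Genes listed for MHC class I processing, interferon signalling and ubiquitin supply were detected throughout, over a wide range of levels. In abundant genes a difference between libraries was common, at 61.3% of genes with a mean count of at least 500, and the counts that follow are to be read against that share and the 44.9% of all genes. Of 10 genes listed for MHC class I processing, 10 were detected and 10 differed between libraries. Their levels ran from Tapbpl at 126 ± 11.9 TPM to B2m at 7890 ± 158 TPM, and their median was 435 ± 33.1 TPM. Of 11 genes of interferon signalling, 11 were detected and 9 differed; their median was 162 ± 8.42 TPM, with Jak2 the lowest at 9.54 ± 1.06 TPM. Irf1, which acts on immunoproteasome genes, stood at 402, 379.7 and 399 TPM and did not pass the test between libraries. Of 9 genes that supply or handle ubiquitin, 9 were detected and 8 differed, from Nploc4 at 9.25 ± 1.11 TPM to Ubb at 2324 ± 172 TPM.

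The libraries held 20783676, 21206219 and 18496690 estimated counts in replicates 1, 2 and 3, of which the 50 members took 0.805, 0.778 and 0.800%. All 7 markers listed for regulatory T cells were detected, from Foxp3 at 90.1 ± 6.76 TPM to Cd3e at 1328 ± 40.7 TPM. Of these, Cd4 and Cd3e are also expressed by other T cells. These 7 summed to 3575, 3411 and 3391 TPM, and markers of other cells to less. All 5 erythroid markers, 3 of 6 B cell markers and 4 of 7 myeloid and dendritic cell markers were detected. The erythroid markers summed to 909, 1270 and 1146 TPM. The B cell markers summed to 11.5, 10.5 and 16.9 TPM and the myeloid ones to 30.5, 21.7 and 33.6 TPM. Of the 4 markers of CD8 T and NK cells 1 was detected, with sums of 2.90, 5.69 and 3.07 TPM. None of 6 stromal and endothelial markers was detected, with sums of 1.12, 0.86 and 0.92 TPM and Pdgfrb at 0. B cells and dendritic cells also express the immunoproteasome, and the part of these cells in the levels above was not tested.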

How the data were processed

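RNA-seq of polyadenylated RNA came from 3 technical replicate libraries of 1 biosample, which form 1 group. RNA was sheared and fragments of 100 to 300 bases taken, per the labels. The authors deposited gene and transcript tables on mm10 with GENCODE M21, per the file headers and accompanying notes (aligner, version and strand setting: not given in the sources used here). Estimated counts (expected counts), as deposited, divide reads that fit several genes or transcripts. The deposited TPM and FPKM values scale these to length and depth. A second deposited table holds whole-number counts for GENCODE M4 genes, by a method not stated. Rows that name no gene held 0.231, 0.271 and 0.189% of counts in replicates 1, 2 and 3 and were left out.

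Levels are means of TPM with the SD over 3 libraries. Estimated counts were rounded to whole numbers for the library test, which had 2 degrees of freedom and used library totals; there are no groups, so no model of a contrast was fitted. The test takes reads as independent. It was tested on simulated counts that were drawn as independent too, so the simulation cannot check that assumption. Where a gene has no count, 3 counts of the library's total, or 0.144, 0.141 and 0.162 CPM in replicates 1, 2 and 3, remain possible. This limit covers only the error of counting, as the reads carry no molecular identifiers and may be copies of one molecule. Shared sequence was measured as the share of 50-base windows of a member's main transcript that occur in another gene's GENCODE M21 transcript. Promoter windows are from RefSeq (GRCm38.p6) and matched 42 of 50 members by symbol. The members, roles, lists and tests were chosen with earlier results of these data known. Values in every library are given for the catalytic subunits, Psme1 to Psme4, Psmf1, Psmg1 to Psmg4, the highest and lowest member of every other role, the 5 differing members with the widest ratio between libraries, members under 1 TPM, and, of the outside lists, Pomp, Adrm1, Nfe2l1, Tap1, Tap2 and Irf1, with the mean of each list's extremes; other members were named after their values were seen. For 1 gene outside the name rule that was chosen in this way, values are not reported here. Alternatives were FPKM, coding transcripts only, the second table, pseudocounts, medians or means, TMM (edgeR 4.0.16) and DESeq2 1.42.0 scaling, count filters, a likelihood-ratio statistic, TPM thresholds, and leaving out each library. Software was Python 3.11.15 with scipy 1.17.1, pandas 2.3.3, numpy 2.4.6 and matplotlib 3.10.9, and R 4.3.3.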

Additional observations from a re-analysis of the deposited data

How the results depend on the processing

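Of 92 recomputed values, 64 stayed within the spread of the value reported or within 1.5 times a count, 25 moved and 3 reversed. For ratios, role medians and transcript shares, leaving out 1 of 3 libraries cannot move the mean beyond their SD. The FPKM ratios are likewise fixed by construction. Many of the 64 were thus settled in advance, and their number is no measure of stability. On the log2 scale, the ratio of the summed immunoproteasome to the summed constitutive subunits was 0.83 with protein-coding transcripts only, 1.00 with the second gene table and 1.48 with medians in place of sums. With alternatives chosen after seeing the data it was 1.22 when gene counts were divided by the length of 1 coding transcript and 1.99 with no length correction. It was 1.90 with FPKM, and 1.87 to 1.93 when each library was left out. Psmb9 over Psmb6 reversed to -0.063 with protein-coding transcripts only and to -0.065 with the second gene table, and Psmb10 over Psmb7 reversed to -0.029 with protein-coding transcripts only; Psmb8 over Psmb5 was above 1.68 on this scale under every alternative run. The number of members that differed between libraries was 19 with TMM and 20 with DESeq2 factors, beside 44.98 and 44.73% of all genes tested. It was 4 with the second table, beside 23.2% of all genes, and 12 to 20 when each library was left out, beside 27.7 to 34.0%. Among members with under 10% shared windows (chosen after seeing the data) it was 14 of 33, beside 44.9%. The number detected was 47 to 48 under every alternative. In FPKM, which in these tables is a fixed multiple of TPM within a library, the role medians were 394 for the immunoproteasome subunits, 141 for the constitutive catalytic subunits, 169 for the alpha ring, 105 for the ATPases, 93.7 for the lid and 347 for PA28. The mean of the immunoproteasome subunits was 798 TPM in place of their median. The share of the members on protein-coding transcripts was 75.6% in TPM in place of counts. Apart from what each alternative changes by its construction, the cause was not tested.

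The limits are those of 1 biosample: no other cell or condition bears on the levels, and the SD covers libraries alone. The depth sufficed to test 48 of 50 members. Pseudogene copies and the division of short reads among transcripts limit the levels of the genes named above.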
